A study of Mus musculus with 8 samples.

Results

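The mature T cell genes examined were 10 genes: Cd3d, Cd3e, Cd3g, Cd4, Cd8a, Il7r, Cd2, Cd5, Foxp3 and Gzmb. They were taken by gene symbol from a table of 24391 symbols, and all 10 were found and passed the filter on low counts. The tissue was the atherosclerotic brachiocephalic artery of C57BL/6 mice that had eaten a Western diet for 18 weeks. The mice were wild type animals of a smooth muscle lineage tracing line. Of the 8 libraries, 4 came from animals injected with an antibody against interleukin-1β and 4 from IgG controls, with 1 animal per library. The promoter that drives the lineage tracing, the animals' age and any further allele are not given in the sources used here. The tissue was frozen whole, so every level below is that of a mixture of vessel wall, lesion and attached cells.

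T cells recognise peptide antigens through a receptor that signals through the CD3 chains. The co-receptors CD4 and CD8 bind class II and class I molecules and divide mature T cells into helper and cytotoxic cells. Before T cells leave the thymus they assemble their receptor genes with the recombinase encoded by Rag1 and Rag2, which mature cells no longer express. In atherosclerotic arteries T cells are found in the plaque and in the adventitia, where regulatory T cells marked by Foxp3 restrain inflammation. Several of the genes are not limited to T cells: in mice Cd4 and Cd8a are also expressed by dendritic cell subsets, Cd2 and Cd5 by B cells, Il7r by innate lymphoid cells, and Gzmb by natural killer cells.

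Each library held between 20137336 and 29453014 gene counts, 24.4% to 34.9% of its alignments. All 28 pairs of libraries differed by more than counting noise. Levels are given in CPM, the count of a gene scaled to a common effective library size. Of the defining markers of an artery, the 6 smooth muscle genes examined summed to between 1434 and 3929 CPM in every library.

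The immature T cell gene Rag1 set 2 libraries apart. Across IgG animals 1 to 4 it had 1354, 20, 2 and 4 counts, and across antibody animals 1 to 4 it had 156, 1108, 38 and 62. IgG animal 1 at 46.3 CPM and antibody animal 2 at 38.8 CPM were therefore far above the other 6 libraries, which ran from 0.0721 to 7.61 CPM. The 6 fixed genes of immature T cells (Rag1, Rag2, Dntt, Ptcra, Arpp21 and Themis) summed to 94.5 CPM in the former and 73.9 CPM in the latter, and to between 1.44 and 17 CPM elsewhere. Dntt, which adds bases at receptor gene joints, had 345 and 223 counts in these 2 libraries and at most 47 in the others.

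Genes of thymic epithelium, the stroma that nurses immature T cells, separated the same 2 libraries from each other. Prss16, a protease of cortical thymic epithelium, had 707 counts in IgG animal 1 and 8 in antibody animal 2, against 0 to 12 in the remaining libraries. Foxn1, the transcription factor that defines thymic epithelium, had 17 counts in IgG animal 1 and 0 in all 7 others. Krt5, a keratin, had 209 counts in IgG animal 1, 0 in antibody animal 2 and at most 4 elsewhere. Of the 8 fixed genes of thymic epithelium, 2 passed the filter on low counts. Ccl25 had 492 counts in IgG animal 1, 68 in antibody animal 2 and 53 to 64 elsewhere. Dll4 did not set IgG animal 1 apart, with 16.7 CPM there, 17.4 CPM in antibody animal 2 and 16 to 33.4 CPM elsewhere. IgG animal 1 thus held transcripts of both immature T cells and thymic epithelium. Antibody animal 2 held the former, with Prss16, Foxn1 and Krt5 at or near 0. Since 1 of these libraries is in each group, the member results are given with all 8 libraries and with the 6 others.

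**Figure D1:**
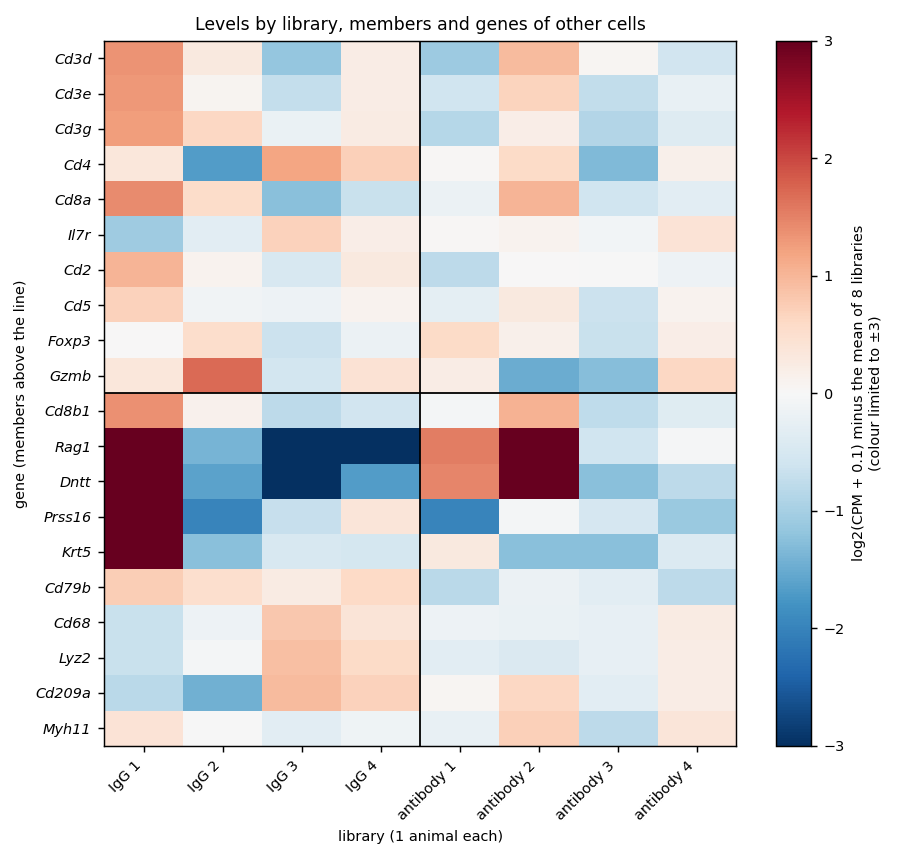
Each cell gives the log2(CPM + 0.1) of a gene in 1 library, with 1 animal per column, minus the mean of that gene over the 8 libraries. Colour is limited to ±3. Members are above the horizontal line, with other T cell genes and genes of other cells below it. The CD3 genes and Cd8a were highest in IgG 1 and Il7r lowest there, while Rag1 and Dntt marked IgG 1 and antibody 2 and Prss16 and Krt5 marked IgG 1.

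Over the whole table no gene passed an adjusted p of 0.05 with edgeR's quasi-likelihood test, so 0 of the 10 members passed, where the share called over the 15980 genes tested was 0%. DESeq2 called 8 genes and limma-voom 2, none of them a member. The unadjusted edgeR p was under 0.05 for 509 genes (3.19% of those tested), and 329 of them (2.06%) were lower with the antibody. Of the members 1, Cd3g, was in that lower set. The log2 fold change of antibody over IgG was below 0 for 8 of 10 members, with a median of -0.43, where 52.3% of all genes were below 0 and the median was -0.01. In a bulk sample, fewer cells of a type and less RNA per cell cannot be told apart. Every member's antibody values overlapped its IgG values; over all genes 1.25% had all antibody values below all IgG values, and 0.713% had all above.

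Without the 2 libraries with high Rag1, 9 of 10 members were below 0 (52.5% of genes), 1 had an unadjusted p under 0.05 (8.11% of genes) and 0 passed when adjusted (0.00633% of genes, edgeR). Without IgG animal 1 alone, 7 of 10 were below 0 (52.1% of genes) with a median of -0.08. In that fit 0 members had an unadjusted p under 0.05 (9.5% of genes) and 0 passed when adjusted (0.00626% of genes). The members' shift to lower values was thus smaller without that library. The median was -0.36 without both libraries with high Rag1, and -0.71 without antibody animal 2 alone.

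The CD3 chains, which carry the signal of the T cell receptor into the cell, lie together on chromosome 9 of mm9. Cd3g (44777655 to 44788514, minus strand) and Cd3d (44789869 to 44795135, plus strand) are divided by 1354 bases and point away from each other. Cd3e (44806826 to 44817673, minus strand) follows 11690 bases further on. Promoter sequences are shown for these 3 because they are neighbours that encode chains of 1 complex. RefSeq gives an entry on GRCm38.p6 for 8 of the 10 members (9 entries, Foxp3 having 2), and the 250 bases before each start are printed 5′ to 3′ on the gene's strand. Capitals mark the core CTTCC of the ETS family of transcription factors, or GGAAG, its other strand.
Cd3g, chr9:44980432-44980681, minus strand: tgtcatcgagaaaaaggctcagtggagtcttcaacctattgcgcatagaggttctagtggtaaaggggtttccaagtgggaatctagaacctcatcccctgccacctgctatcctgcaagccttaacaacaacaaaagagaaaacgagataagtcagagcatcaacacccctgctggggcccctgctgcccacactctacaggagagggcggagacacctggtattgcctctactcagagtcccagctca
Cd3d, chr9:44981536-44981785, plus strand: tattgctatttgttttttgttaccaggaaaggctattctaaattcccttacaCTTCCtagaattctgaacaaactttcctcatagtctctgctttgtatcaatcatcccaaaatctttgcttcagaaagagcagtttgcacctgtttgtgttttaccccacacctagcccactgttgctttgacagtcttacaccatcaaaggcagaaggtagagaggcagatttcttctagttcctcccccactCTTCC
Cd3e, chr9:45009612-45009861, minus strand: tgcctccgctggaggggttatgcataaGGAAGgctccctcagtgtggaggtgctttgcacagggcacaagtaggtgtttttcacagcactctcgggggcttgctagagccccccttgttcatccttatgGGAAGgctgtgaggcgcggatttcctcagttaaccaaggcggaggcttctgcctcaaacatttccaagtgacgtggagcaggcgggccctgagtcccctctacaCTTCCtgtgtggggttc

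The ETS core was present 3 times in the Cd3e window, 2 times in that of Cd3d and 0 times in that of Cd3g. It occurs in 64.1% of the 32851 RefSeq promoter windows of that length, and in 7 of the 9 member entries. The E-box CANCTG, bound by the E proteins of lymphocytes (CAGNTG on the other strand), was present 2 times for Cd3g, 1 time for Cd3d and 0 times for Cd3e, against 44.8% of all windows. The RUNX core TGTGGT or ACCACA was in none of these 3 windows and in 14% of all. The ETS and E-box letters can overlap, and a match describes these letters only.

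Values below follow the animals' numbers from 1 to 4. The epsilon chain gene Cd3e had 4.96, 2.08, 1.15 and 2.29 CPM in IgG animals and 1.27, 3.15, 1.14 and 1.66 CPM in antibody animals. It was highest in the 2 libraries with high Rag1, and the other 6 values lay between 1.14 and 2.29 CPM with the groups mixed. Its mean was 2.62 ± 1.64 CPM under IgG and 1.81 ± 0.926 CPM under the antibody (SD, n = 4 each). The log2 fold change was -0.53 ± 0.48 (SE; 95% interval -1.60 to 0.54), and without IgG animal 1 it was -0.01 ± 0.42. Without both libraries with high Rag1 it was -0.44 ± 0.36.

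The gamma chain gene Cd3g had 4.55, 2.91, 1.59 and 2.23 CPM in IgG animals and 0.976, 2.14, 0.963 and 1.38 CPM in antibody animals. All antibody animals except the one with high Rag1 were below every IgG animal. Its log2 fold change was -1.03 ± 0.39 (95% interval -1.90 to -0.17). With edgeR the unadjusted p was 0.024 and the adjusted p was 0.9997. Without the 2 libraries with high Rag1 the log2 fold change was -1.01 ± 0.35 (unadjusted p = 0.0198, edgeR), when 3.44% of all genes were lower at an unadjusted p under 0.05. Without IgG animal 1 alone it was -0.70 ± 0.36 (unadjusted p = 0.0893), and without antibody animal 1 or 3 it was -0.91 or -0.90, also with an unadjusted p above 0.05.

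The delta chain gene Cd3d had 3.39, 1.57, 0.505 and 1.48 CPM in IgG animals and 0.537, 2.52, 1.31 and 0.809 CPM in antibody animals. The 2 groups covered much the same range, with IgG animal 3 the lowest of all. Its log2 fold change was -0.41 ± 0.60, and without IgG animal 1 it was 0.15 ± 0.57. Without both libraries with high Rag1 it was -0.41 ± 0.52.

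Of the co-receptors, Cd8a (chromosome 6, 71323421 to 71329165) was highest in the libraries with high Rag1. It had 14, 7.65, 2.13 and 3.24 CPM in IgG animals and 4.59, 10.6, 3.41 and 4.13 CPM in antibody animals. The groups overlapped, and IgG animal 1 and antibody animal 2 were the highest of their groups. The log2 fold change was -0.24 ± 0.58 with all libraries, -0.10 ± 0.46 without these 2, and 0.40 ± 0.52 without IgG animal 1 alone. The neighbouring gene Cd8b1, which encodes the partner chain of CD8 on T cells, had 5.13 and 4.07 CPM in these 2 libraries and 1.08 to 2.12 CPM in the others.

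Cd4 (chromosome 6, 124814711 to 124838227) was distributed in another way. It had 13.4, 3.27, 24 and 17.5 CPM in IgG animals and 10.8, 15.8, 4.2 and 11.7 CPM in antibody animals. It was highest in IgG animal 3, where Cd3d and Cd8a were lowest. The log2 fold change was -0.46 ± 0.54 (95% interval -1.67 to 0.76), and -0.73 ± 0.65 without the 2 libraries with high Rag1. Without IgG animal 3 it was -0.11. Of 8 dendritic cell genes examined, Cd209a, a lectin of a dendritic cell subset, had 2.33, 1.48, 8.19 and 6.85 CPM in IgG animals and 4.39, 6.52, 3.33 and 4.90 CPM in antibody animals. It was highest in IgG animal 3 and lowest in IgG animal 2, as Cd4 was, while none of the 7 others had both. Clec9a, Zbtb46 and Batf3 were highest in IgG animal 2, with 13.6, 25.1 and 4.01 CPM, and Siglech was lowest in IgG animal 3 with 0.288 CPM. The part of dendritic cells in the Cd4 level was not tested.

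Il7r (chromosome 15, 9435914 to 9459631), the receptor for the survival cytokine IL-7, was the most abundant member. It had 46.3, 78.7, 159 and 113 CPM in IgG animals and 100, 106, 93.0 and 130 CPM in antibody animals. IgG animal 1, highest for every CD3 gene, was the lowest for Il7r, and IgG animal 3 was the highest. The log2 fold change was 0.11 ± 0.32 with all libraries and -0.11 ± 0.25 without the 2 with high Rag1. The 10 macrophage genes in the table summed to 4277 CPM in IgG animal 1 and 11344 CPM in IgG animal 3. These were the lowest and highest sums of the 8 libraries, with 4994 to 9132 CPM in the rest. Lyz2 alone had 2673 CPM in IgG animal 1 and 7955 CPM in IgG animal 3, the largest part of each sum. Cd68, a macrophage lysosomal protein, had 130, 186, 361 and 271 CPM in IgG animals. In antibody animals it had 185, 179, 175 and 245 CPM. Like Il7r it was lowest in IgG animal 1 and highest in IgG animal 3, as were Lyz2, Mertk, C1qa, C1qb and C1qc. Csf1r, Adgre1, Fcgr1 and Cd14 were not lowest in IgG animal 1. Csf1r and Adgre1 were highest in IgG animal 4. The part of other cells in the Il7r level was not tested.

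**Figure D2:**
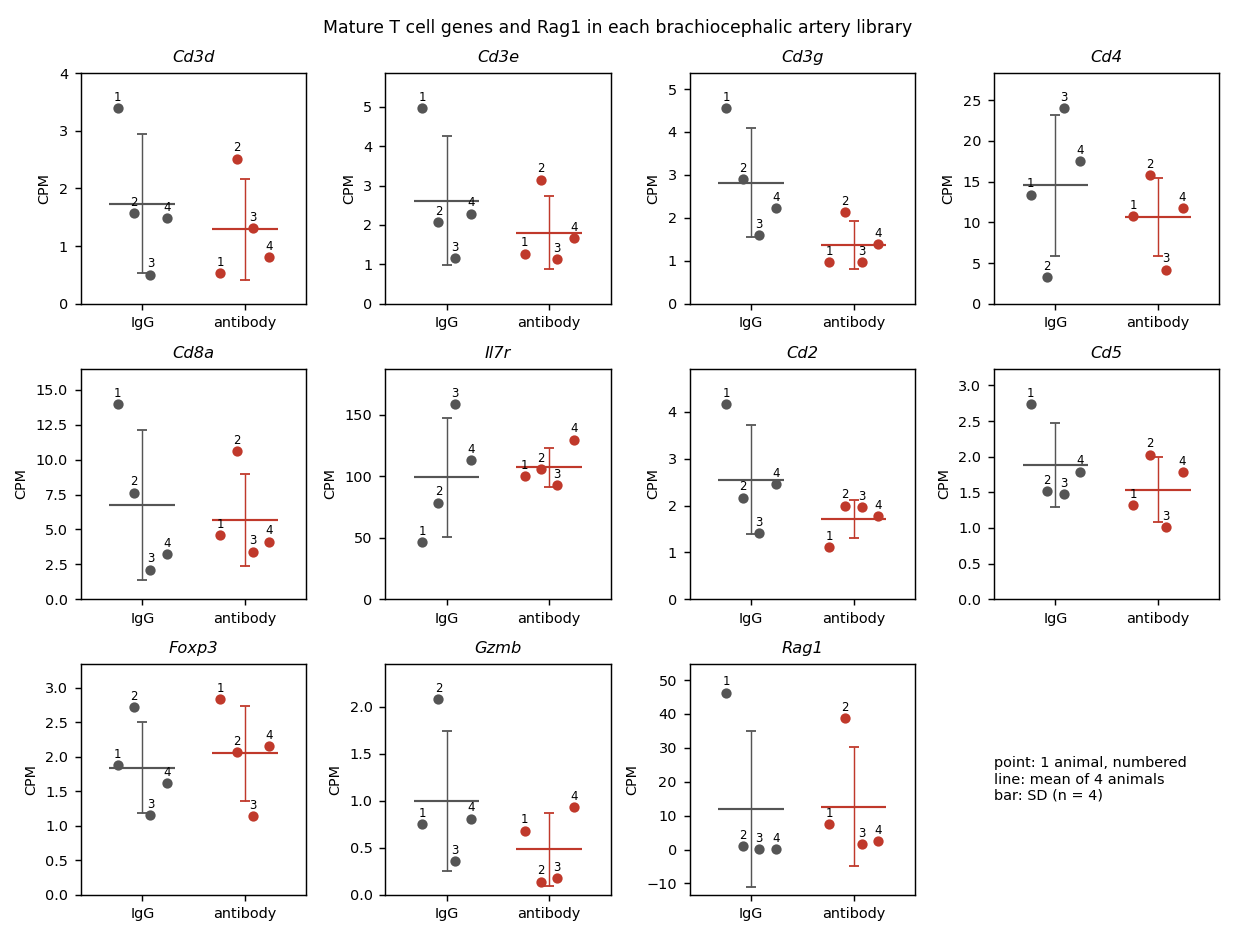
Each panel gives the level in CPM of 1 gene, with IgG animals in grey and antibody animals in red. A point is 1 animal with its number, the horizontal line is the mean of 4 animals and the bar the SD. The CD3 genes, Cd8a, Cd2 and Cd5 were highest in IgG animal 1, while Il7r was lowest there and Cd4 and Il7r peaked in IgG animal 3.

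The adhesion and modulating receptors had narrow ranges outside IgG animal 1. Cd2 (chromosome 3, 101079831 to 101091862), an adhesion receptor, had 4.17, 2.17, 1.41 and 2.46 CPM in IgG animals and 1.12, 2, 1.97 and 1.78 CPM in antibody animals. Cd5 (chromosome 19, 10792633 to 10813464), which dampens receptor signalling, had 2.74, 1.52, 1.48 and 1.79 CPM and 1.32, 2.03, 1.01 and 1.78 CPM. In both genes the groups overlapped and IgG animal 1 stood highest. The log2 fold changes were -0.57 ± 0.35 for Cd2 and -0.29 ± 0.31 for Cd5, and -0.22 ± 0.30 and -0.05 ± 0.30 without IgG animal 1. Without both libraries with high Rag1 they were -0.30 ± 0.34 for Cd2 and -0.22 ± 0.32 for Cd5.

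Foxp3 (chromosome X, 7156802 to 7172369), the transcription factor of regulatory T cells, was not highest in either library with high Rag1. It had 1.88, 2.72, 1.15 and 1.62 CPM in IgG animals and 2.83, 2.07, 1.14 and 2.15 CPM in antibody animals. The group ranges were nearly the same, and the 8 animals spanned 2.49-fold, the smallest span of the 10 members. The log2 fold change was 0.15 ± 0.34 (95% interval -0.61 to 0.92), and 0.16 ± 0.45 without both libraries with high Rag1. Of its 3928 exon bases 590 are shared with Ccdc22 and 267 with Ppp1r3fos in the annotation, where the counter leaves out ambiguous reads by default, so its level is uncertain.

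Gzmb (chromosome 14, 56877695 to 56881097), a killing protease of cytotoxic T and natural killer cells, was near the limit of detection. It had 22, 45, 10 and 24 counts in IgG animals and 14, 4, 4 and 23 in antibody animals. These counts correspond to 0.361 to 2.08 CPM under IgG and 0.140 to 0.931 CPM under the antibody, and the groups overlapped. Its log2 fold change was -1.04 ± 0.69 (95% interval -2.58 to 0.50), the widest interval of the 10 members. The fold change was -0.43 without IgG animal 2, -1.61 without antibody animal 4 and -0.83 ± 0.76 without both libraries with high Rag1.

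**Figure D3:**
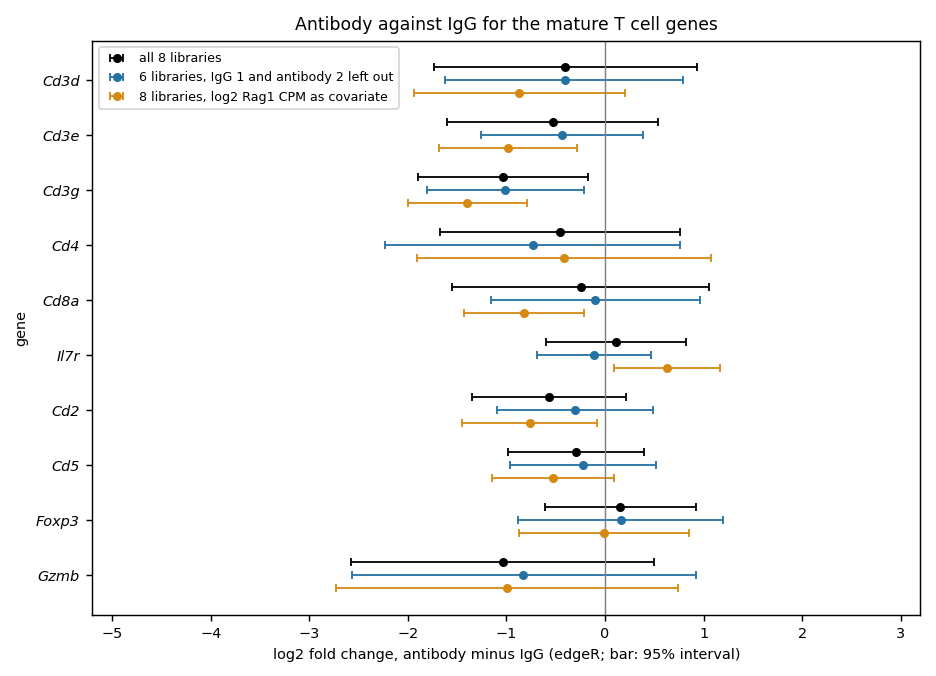
Points give the log2 fold change of antibody over IgG for each member from edgeR and bars its 95% interval, in 3 fits: all 8 libraries (black), the 6 libraries without IgG 1 and antibody 2 (blue), and 8 libraries with log2 Rag1 CPM as a covariate (orange). The Cd3g interval excluded 0 in all 3 fits before adjustment over all genes, and with the covariate so did those of Cd3e, Cd8a, Cd2 and Il7r, the last on the positive side.

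Reading the members against Rag1 was also done by fitting log2 Rag1 CPM as a covariate, an alternative chosen after the data were seen. In that fit 9 of 10 members were below 0 (49.3% of all genes), with a median of -0.79. There 5 members had an unadjusted p under 0.05 with edgeR, where 4.04% of all genes did, and 0 passed when adjusted over all genes (smallest adjusted p of a member 0.491). They were Cd3g with a log2 fold change of -1.40 ± 0.27, Cd3e with -0.98 ± 0.31, Cd8a with -0.82 ± 0.27, Cd2 with -0.76 ± 0.30 and Il7r with 0.63 ± 0.24. Outside the 2 high libraries Rag1 itself was higher in the antibody animals (1.66, 2.51 and 7.61 CPM) than in the IgG animals (0.0721, 0.135 and 0.922 CPM), with a log2 fold change of 3.45 ± 0.93 (adjusted p = 0.61, edgeR). In those 6 libraries a difference in Rag1 and the group cannot be told apart.

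Within those 6 libraries the members' levels showed no relation to Rag1 that passed a test. Of 10 relations the Pearson r ran from -0.57 for Cd3g to 0.60 for Foxp3, and Spearman's rho from -0.60 to 0.66. The smallest adjusted p was 0.667 for r and 0.806 for rho (exact permutation tests, two-sided, n = 6). With the 2 libraries farthest from the median Rag1 level left out, r ran from -0.98 to 0.82 over 4 libraries. The pooled r over 8 libraries is not given, because 2 of them form a separate cluster.

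Across all 8 libraries 5 members followed Cd3e. Pearson's r with Cd3e was 0.91 for Cd5, 0.88 for Cd3d and for Cd3g, 0.85 for Cd8a and 0.83 for Cd2 (exact permutation adjusted p = 0.00982, 0.0131, 0.0131, 0.0161 and 0.0161 over 9 relations, n = 8, two-sided). Spearman's rho was 0.95, 0.83, 0.83, 0.69 and 0.76 in the same order (exact permutation adjusted p = 0.0103, 0.0461, 0.0461, 0.125 and 0.0827). For the other 4 members r was 0.29 for Foxp3, 0.19 for Cd4, 0.14 for Gzmb and -0.70 for Il7r (exact permutation adjusted p for Il7r = 0.0808), with rho of 0.26, 0.24, 0.21 and -0.33. Without IgG animal 1 and antibody animal 2, the 2 libraries farthest from the median of Cd3e, r was 0.72, 0.66, 0.81, 0.48 and 0.71 for the first 5 (exact permutation p = 0.0958, 0.172, 0.0625, 0.357 and 0.124, n = 6). The relations thus no longer passed a test without these 2 libraries. In the same 6 libraries r was 0.44 for Foxp3, -0.08 for Cd4, 0.79 for Gzmb and -0.30 for Il7r (exact permutation p = 0.344, 0.856, 0.0653 and 0.561). The low r of Gzmb over 8 libraries thus depended on these 2 as well.

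Counts relative to Cd3e in the same library do not depend on scaling between libraries, and they ask whether the balance among the members differed. Cd3g had 0.917, 1.4, 1.38 and 0.971 reads per Cd3e read in IgG animals and 0.769, 0.678, 0.846 and 0.83 in antibody animals. The groups did not overlap, and the mean log2 ratio, with 0.5 added to each count, was 0.19 ± 0.32 under IgG and -0.36 ± 0.15 under the antibody (SD, n = 4). The difference of -0.55 had an exact permutation p of 0.0286, the smallest that 70 assignments allow, and an adjusted p of 0.257 over 9 ratios, so it did not pass. With the sum of the 3 CD3 genes as denominator the difference was -0.38 (exact permutation p = 0.0857). Cd3g to Cd3e was the 1 ratio of 9 whose groups did not overlap. The same ratio, computed for every gene kept, was lower without overlap for 7 of 15979 genes (0.0438%). In either direction it did not overlap for 119 genes (0.745%), so most of these were higher. Cd3e itself had a log2 fold change of -0.53, and a lower Cd3e raises every ratio to it. The small share of lower genes is thus no measure of how unusual Cd3g was.

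Relative to Cd3e, Cd4 spread widely, with the highest ratio 13.2-fold the lowest, while Cd8a spread 2.61-fold. Cd4 had 1.58 to 20.8 reads per Cd3e read, with the lowest value in IgG animal 2 and the highest in IgG animal 3. Cd8a had 1.41 to 3.69 reads per Cd3e read, and its log2 ratio difference was 0.43 (exact permutation p = 0.286). Foxp3 had 0.379, 1.31, 1 and 0.706 reads per Cd3e read in IgG animals and 2.23, 0.656, 1 and 1.29 in antibody animals, a log2 difference of 0.60 (exact permutation p = 0.4). Both libraries with high Rag1 had the lowest Foxp3 share of their group. Il7r had 9.33 reads per Cd3e read in IgG animal 1 and 137 in IgG animal 3. For the 8 ratios other than Cd3g the adjusted p was 0.943.

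**Figure D4:**
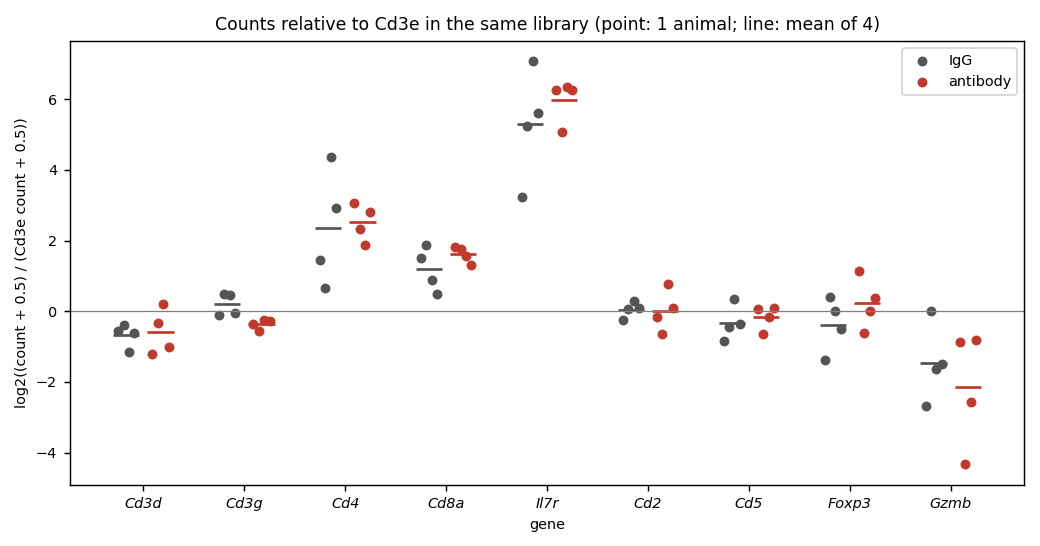
The vertical axis gives log2((count + 0.5) / (Cd3e count + 0.5)) for each of the 9 other members. Points are single animals, grey for IgG and red for antibody, and lines are means of 4 animals. The Cd3g points of the groups are apart, and the Cd4, Il7r and Gzmb points are spread widest.

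Between genes, levels can be compared only per length of exon. On the scale of CPM per kilobase of exon, Il7r had a median over the 8 libraries of 32 (range 14.4 to 49.4), above Cd4 at 4.07 (1.06 to 7.76) without overlap. The next were Cd3g at 1.82 (0.941 to 4.45), Cd2 at 1.73, Cd8a at 1.39, Cd3e at 1.30 and Cd3d at 1.05. The lowest were Cd5 at 0.798, Gzmb at 0.507 (0.099 to 1.47) and Foxp3 at 0.503 (0.290 to 0.721). From Cd4 down, each gene's range overlapped that of its neighbour in this order.

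Other genes of the T cell receptor pathway, taken from a fixed list of 18 of which 17 were kept, had log2 fold changes below 0 for 14, with a median of -0.45. With edgeR 3 of the 17 were lower at an unadjusted p under 0.05 and 0 were higher, and 0 passed when adjusted over all genes. The shares over all genes were 52.3% below 0, 2.06% lower at such a p and 0% past the adjusted threshold. Every antibody value was below every IgG value for 1 of the 17, against 1.25% of all genes. Lcp2, the adaptor SLP-76, had 31.1, 40.3, 37.8 and 42.7 CPM in IgG animals and 30.2, 27.5, 25.3 and 27.8 CPM in antibody animals. Its groups did not overlap and its log2 fold change was -0.45 ± 0.12; both Lcp2 and Fyb (-0.50 ± 0.15), another adaptor, are also expressed by myeloid cells. Ubash3a, a regulator of receptor signalling, had -1.19 ± 0.46, and the co-stimulatory receptor gene Icos had -0.86 ± 0.41.

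In the lists of T cell subsets no gene passed the adjusted threshold, where 0% of all genes did. Most fold changes were below 0, against 52.3% over all genes. Of 12 T lineage transcription factors 9 were below 0 (median -0.21), with Runx3, a factor of cytotoxic cells, at -0.55 ± 0.24. All 7 regulatory T cell partners kept, of 9, were below 0 (median -0.25), with Il2ra, the high-affinity IL-2 receptor chain, at -0.77 ± 0.31. Of 12 cytotoxic and natural killer genes kept, of 15, there were 10 below 0 (median -0.30), with Nkg7, a protein of cytotoxic granules, at -0.53 ± 0.33 and Prf1, which forms pores in target cells, at -0.11 ± 0.62. All 4 genes of naive and recirculating lymphocytes were below 0 (median -0.38). Of the immature T cell genes 4 were kept, 2 below and 2 above 0, and of the thymic epithelium genes 2 were kept, 1 on each side. Helper cytokine genes were below the filter in all 9 cases, Il22 had 0 counts in every library, and Ifng had 0 to 7 counts.

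Genes of other lymphoid and myeloid cells also had log2 fold changes mostly below 0, with none past the adjusted threshold. Over all genes 52.3% were below 0, 2.06% were lower at an unadjusted p under 0.05 (edgeR) and 0% passed when adjusted. All 9 B cell genes had log2 fold changes below 0 (median -0.82), 4 of them at an unadjusted p under 0.05 (edgeR), and their summed level was 56.5 to 68.7 CPM under IgG and 39.7 to 51.3 CPM under the antibody. Cd79b, which signals for the B cell receptor, was at -1.06 ± 0.24, and Fcrla, an Fc receptor-like protein of B cells, at -1.12 ± 0.34. All 10 macrophage genes were also below 0 (median -0.36), with Csf1r, the receptor for their growth factor, at -0.38 ± 0.15, as were 6 of 8 dendritic cell genes (median -0.22). Mast cell genes were below 0 in 1 of 8 cases (median 0.17) and smooth muscle genes in 1 of 6 (median 0.10). Of lymph node genes Ccl21a had 0 counts in every library. It has near-identical copies in the mouse genome, and how reads were divided among these was not tested, so its count is uncertain. The 4 kept genes of that list were below 0. The summed level of all 7 was 23.1 to 54.1 CPM under IgG and 18.5 to 30.5 CPM under the antibody. Most of this sum in every library was Lyve1, described below, with 17 to 46.7 CPM under IgG and 13.5 to 26.6 CPM under the antibody. The part of these cells in the members' values was not tested.

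The genes whose levels followed the members most closely were not all T cell genes. By the Pearson r over 8 libraries with the mean of the members' standardised log2 levels, the leading genes included Lyve1 (r = 0.98), Adcy5 (0.97), Aldh1a1 (0.97), Fndc4 (0.96), Zfp287 (0.95), Ccdc186 (0.94) and Gfpt2 (0.94). They were picked for the highest r among the genes kept, over only 8 libraries and with no test. Such r cannot show a relation to the members. The mean also includes Il7r, which had r = -0.70 with Cd3e. Lyve1, a receptor of lymphatic endothelium and of some resident macrophages, had 46.7, 23.5, 17 and 25.9 CPM in IgG animals and 18.3, 26.6, 13.5 and 21.8 CPM in antibody animals. It was highest in IgG animal 1 and antibody animal 2 of each group, as Cd3e was.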

How the data were processed

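The deposited values are raw counts by gene symbol, with all 8 libraries in a single file, beside a summary of how alignments were assigned. featureCounts 1.4.6-p4 was run by the authors on exons of the UCSC mm9 annotation, per the file headers, and its command shows no option for strand, read pairs or reads with several alignments. Even values made up 66.7% to 71.1% of the counts between 1 and 10. CASAVA, Subread, DESeq2 and STAR 3.0 are named in the submitters' processing notes. The exon length deposited by the authors served only for levels per kilobase. Groups follow the sample titles, and p-values measure the spread between 4 animals per group.

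Genes were kept by filterByExpr (minimum count 10, minimum total count 15), leaving 15980. Antibody was compared with IgG by the edgeR 4.0.16 quasi-likelihood F-test (R 4.3.3, TMM scaling, robust, no covariate) with Benjamini-Hochberg adjustment over all genes kept and a threshold of 0.05. SE and 95% intervals come from the same test. DESeq2 1.42.0 and limma 3.58.1 (voom with quality weights) were alternatives, as were other scalings, no filter, each animal left out and the replicate number as a block. log2 CPM used a prior count of 2. The fitting script was tested on simulated data. Single ratios were compared with two-sided exact permutation tests (scipy 1.17.1) over 70 assignments, adjusted over 9 ratios. The members, and the 14 lists beside them, were chosen with earlier results of these data known. Named genes are the members, Rag1, up to 4 genes per list with the smallest p, immature T cell, thymic and lymph node genes at 0 in every library, and the 8 genes most like the members, except items that are not reported here; Cd8b1, Cd209a, Cd68, Dntt, Prss16, Foxn1, Krt5, Clec9a, Zbtb46, Batf3, Siglech, Prf1, Il22 and Ifng were also named after their values were seen where the rule did not reach them. Lyz2, Mertk, Fcgr1, C1qa and C1qc were likewise named after their values were seen. Deviations of same-numbered libraries of the groups had correlations from -0.344 to 0.293, and those of other pairs ran from -0.520 to 0.458. The main fit did not pair the libraries, and so few correlations cannot show whether animals were paired. Gene coordinates are mm9, as in the table. Promoters are from RefSeq on GRCm38.p6 and were matched by symbol only.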

Additional observations from a re-analysis of the deposited data

Results flagged for a closer look

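In 4 of 40 groups of 4 animals examined, 1 animal lay far from the others of its group by Dixon's test of the gap over the range. Chance flags about 1 in 20 independent groups. These groups came from the same animals, through genes and ratios related to each other, so the count cannot be set against that share. Rag1 had 46.3 CPM in IgG animal 1, and the other IgG animals had at most 0.922 CPM. Rag1 had 38.8 CPM in antibody animal 2, and the other antibody animals had at most 7.61 CPM. Cd8a had 10.6 CPM in antibody animal 2 and 3.41 to 4.59 CPM in the other antibody animals. The log2 ratio of Il7r to Cd3e was 5.06 in antibody animal 2 and 6.27 to 6.33 in the other antibody animals. Of these 4 values, 3 belong to antibody animal 2. The Rag1 values are those that had already set IgG animal 1 and antibody animal 2 apart.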

How the results depend on the processing

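No member passed an adjusted p of 0.05 in any of the 16 alternative fits. Over all genes, 8 passed with DESeq2, 2 with limma-voom (Polr2k and Sugct) and 1 without both libraries with over 1000 Rag1 counts (Hist1h4i, adjusted p = 0.0494, an alternative added after the data were seen). Leaving out single animals gave 0 to 1 gene: Gpr137b-ps without IgG animal 1 and Hist1h4i without antibody animal 2. Members at an unadjusted p under 0.05 numbered 0 to 2 with 1 animal left out (0 without IgG animal 1, antibody animal 1 or antibody animal 3, and 2 without IgG animal 3) and 5 with Rag1 as a covariate; the cause was not tested. Members below 0 numbered 7 to 9 throughout. The replicate number as a block gave 0 genes past the threshold, with 8 members below 0, and 361 genes at an unadjusted p under 0.05 in place of 509; it changed no call.

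Signs near 0 were not stable. Cd8a was 0.57 and Il7r -0.03 with limma-voom, Il7r was -0.11 without both libraries with high Rag1, and Foxp3 was -0.01 with Rag1 as a covariate. With 1 animal left out, log2 fold changes ran from -0.98 to 0.15 for Cd3d, -0.75 to 0.40 for Cd8a, -0.12 to 0.44 for Il7r and -0.04 to 0.39 for Foxp3. For ratios to Cd3e they ran from -0.16 to 0.31 for Cd3d, -0.39 to 0.84 for Cd4, -0.29 to 0.19 for Cd2, -0.01 to 0.39 for Cd5 and -1.13 to 0.04 for Gzmb. The Cd2 ratio difference was 0.14 with all 3 CD3 genes as denominator, and without both libraries with high Rag1 it was 0.09, with -0.07 for Cd4. In all these the cause was not tested. Cd3g, Cd3e, Cd4, Cd2, Cd5 and Gzmb were below 0 in every fit, but with 1 animal left out they ran from -1.35 to -0.70, -0.96 to -0.01 (the last without IgG animal 1), -0.78 to -0.11, -0.77 to -0.22, -0.46 to -0.05 and -1.61 to -0.43. The Cd3g ratio to Cd3e had an exact permutation p of 0.0286 without any 1 IgG animal and 0.0571 to 0.0857 without any 1 antibody animal, and 0.0857 with all 3 CD3 genes as denominator. Low counts limit precision, with 4 reads of Gzmb in each of antibody animals 2 and 3.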
